A study of Mus musculus with 4 samples.

Results

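The G1 cyclins, kinases and inhibitors form a set of 10 genes chosen by name out of the 21938 protein-coding genes of GENCODE vM21 on chromosomes 1 to 19, X and Y. They comprise the D-type cyclins Ccnd1, Ccnd2 and Ccnd3, the E-type cyclins Ccne1 and Ccne2, the kinases Cdk4, Cdk6 and Cdk2, and the inhibitors Cdkn1a (p21) and Cdkn1b (p27). All 10 were found in the annotation, and every peak of 4 deposited lists that lay in one of these genes or within 5 kb of its transcription start site (TSS) is described here. Chromatin accessibility was measured by ATACseq, in which the Tn5 transposase cuts open DNA, and occupancy of the histone variant H2A.Z by ChIPseq after digestion with micrococcal nuclease. One WT liver, from a Uhrf1 fl/fl male without Cre, and one Uhrf1hepKO liver, from a Uhrf1 fl/fl;Alb:Cre male, were used for both assays. Both mice were C57Bl/6 and 8 to 12 weeks old. The albumin promoter drives Cre in hepatocytes, and the whole liver also holds other cells that keep Uhrf1. Each condition had 1 library, so no difference was tested and no replicate error can be given. A peak list cannot check the deletion of Uhrf1, since it gives no read coverage outside peaks.

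Entry into the cell cycle runs through these genes. Mitogens induce the D-type cyclins, which pair with Cdk4 or Cdk6 and begin to phosphorylate the retinoblastoma protein. Release of E2F then brings expression of the E-type cyclins, whose complexes with Cdk2 drive the cell into S phase. Cdkn1b holds E-cyclin complexes inactive in resting cells, and Cdkn1a does so after p53 activation and other stresses. Hepatocytes of the adult liver rest outside the cycle and return to it after loss of tissue, when Ccnd1 is the cyclin best known to be induced. H2A.Z replaces H2A in the nucleosomes that flank the start sites of many genes, and UHRF1 is required to maintain DNA methylation at CpGs.

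The stretches below show differences among these genes, without Ccnd2, and are grouped by their peaks rather than by the order of discussion. Each is printed 5′ to 3′ on the strand of the gene from the RefSeq FASTA of GRCm38.p6, with every CpG in capitals, and leaves out annotated 5′ UTRs. The first pair are the parts upstream of the TSS of the ATACseq peaks that covered the Cdkn1b and Cdk4 start sites in both livers, here with the WT bounds.
Cdkn1b, chr6:134920177-134920400, + strand: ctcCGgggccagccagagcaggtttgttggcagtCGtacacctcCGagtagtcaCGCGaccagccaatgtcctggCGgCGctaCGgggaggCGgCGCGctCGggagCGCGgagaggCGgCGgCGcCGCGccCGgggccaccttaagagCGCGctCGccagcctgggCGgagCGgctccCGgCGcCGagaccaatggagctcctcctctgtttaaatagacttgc
Cdk4, chr10:127063263-127063533, + strand: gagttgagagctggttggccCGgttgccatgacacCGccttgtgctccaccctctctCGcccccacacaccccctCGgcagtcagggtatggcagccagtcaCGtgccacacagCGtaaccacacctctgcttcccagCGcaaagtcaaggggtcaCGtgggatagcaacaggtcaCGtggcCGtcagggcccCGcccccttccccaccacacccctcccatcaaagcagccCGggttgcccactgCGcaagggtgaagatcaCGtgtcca
The Ccne2 stretch is the ATACseq peak called only in the Uhrf1hepKO list, and the Cdk2 stretch is DNA upstream of the start site from the gap between its H2A.Z peaks, where neither list held an ATACseq peak.
Ccne2, chr4:11191164-11191311, + strand: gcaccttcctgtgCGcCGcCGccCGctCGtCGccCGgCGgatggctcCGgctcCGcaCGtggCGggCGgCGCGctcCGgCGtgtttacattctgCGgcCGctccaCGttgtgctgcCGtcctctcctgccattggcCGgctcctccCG
Cdk2, chr10:128705032-128705179, - strand: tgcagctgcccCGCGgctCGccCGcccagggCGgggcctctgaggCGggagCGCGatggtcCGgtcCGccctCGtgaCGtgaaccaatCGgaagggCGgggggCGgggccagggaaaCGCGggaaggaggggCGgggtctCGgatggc
The Cdk6 stretch is the coding part of an ATACseq peak called only in WT. The Ccnd3 stretch is the part of a Uhrf1hepKO ATACseq peak that lies upstream of starts of short transcripts within the gene.
Cdk6, chr5:3344367-3344597, + strand: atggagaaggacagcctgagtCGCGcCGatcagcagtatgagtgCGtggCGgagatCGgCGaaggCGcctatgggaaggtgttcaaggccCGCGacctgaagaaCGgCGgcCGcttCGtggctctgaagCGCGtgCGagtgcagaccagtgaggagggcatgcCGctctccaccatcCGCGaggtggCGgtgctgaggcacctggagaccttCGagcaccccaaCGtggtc
Ccnd3, chr17:47593140-47593435, + strand: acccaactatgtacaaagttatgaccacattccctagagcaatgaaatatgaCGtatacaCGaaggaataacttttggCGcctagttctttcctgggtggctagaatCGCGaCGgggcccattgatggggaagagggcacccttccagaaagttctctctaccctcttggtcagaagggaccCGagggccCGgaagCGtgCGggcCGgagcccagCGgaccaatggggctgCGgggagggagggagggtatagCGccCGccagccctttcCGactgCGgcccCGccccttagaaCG
The last set are H2A.Z peaks of genes that had no ATACseq peak within 5 kb of the TSS in either list. They are the lone Cdkn1a peak of the Uhrf1hepKO list, and the WT peaks nearest to the Ccnd1 and Ccne1 start sites.
Cdkn1a, chr17:29095397-29095497, + strand: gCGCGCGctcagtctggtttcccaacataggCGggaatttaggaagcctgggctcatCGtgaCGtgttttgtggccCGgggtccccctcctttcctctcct
Ccnd1, chr7:144941438-144941590, - strand: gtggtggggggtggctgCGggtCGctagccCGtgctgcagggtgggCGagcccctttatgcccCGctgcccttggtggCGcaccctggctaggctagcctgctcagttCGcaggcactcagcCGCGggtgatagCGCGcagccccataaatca
Ccne1, chr7:38108106-38108230, - strand: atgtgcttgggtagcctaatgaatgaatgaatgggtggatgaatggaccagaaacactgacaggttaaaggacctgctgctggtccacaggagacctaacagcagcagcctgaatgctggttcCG
These stretches differed widely in CpGs: the Ccne2 peak held 23 in 148 bases and the Cdkn1b stretch 28 in 224, whereas the Ccne1 stretch held 1 in 125.

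The 4 lists held 10582 (WT ATACseq), 10764 (Uhrf1hepKO ATACseq), 51450 (WT H2A.Z) and 47135 (Uhrf1hepKO H2A.Z) peaks on these chromosomes. A peak's fold is its read pileup over the background as MACS2 gave it, and folds were ranked only within a list because no value was scaled between libraries. For H2A.Z, the number of reads at each summit could be solved from the fold and the p-value, and was 21 in the median WT peak and 23 in the median Uhrf1hepKO peak. The lowest summits that were called had 11 and 12 reads. Intervals are exact Poisson for reads and Wilson for shares, at 95%, and reflect counting error alone. Of 8 hepatocyte markers, 0 had a WT and 1 (Alb) had a Uhrf1hepKO ATACseq peak in the 5 kb windows, and 3 (Fgb, Ttr, Ttc36) and 1 (Fgb) had an H2A.Z peak. None of 4 Kupffer cell, 4 endothelial and 4 stellate cell markers had a peak in any list, and of 4 cholangiocyte markers Sox9 had 1 in WT ATACseq while Sox9 and Spp1 had them in both H2A.Z lists. The marker peaks therefore do not tell the cell types of the liver apart. In whole liver, fewer cells with an open site and less opening per cell cannot be told apart.

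Every G1 gene had a peak within 5 kb of its TSS in at least 1 list, against 42.3% of protein-coding genes that had none in any. In WT ATACseq 4 of 10 genes had such a peak (40%, 16.8 to 68.7%), where the share of all protein-coding genes was 30.2%. In Uhrf1hepKO ATACseq 5 of 10 did, with a background of 27.9%. H2A.Z marked 8 of 10 in each liver (80%, 49.0 to 94.3%), against 52.8% of all genes in WT and 51% in Uhrf1hepKO. The intervals of all 4 lists took in the background share, so with 10 genes no excess could be shown in any single list. For the count over any list no interval was computed. With the gene bodies added to the windows the counts of genes stayed at 4, 5, 8 and 8, and the background was 36.1% (WT ATACseq), 34.4% (Uhrf1hepKO ATACseq), 60.7% (WT H2A.Z) and 58.6% (Uhrf1hepKO H2A.Z). Within the genes and windows together there were 6 WT and 7 Uhrf1hepKO ATACseq peaks and 43 WT and 36 Uhrf1hepKO H2A.Z peaks. Their folds were ordinary for their lists, with the median member peak above 39.9% of the WT ATACseq and 44.6% of the Uhrf1hepKO ATACseq peaks, and above 45.1% and 56.9% of the H2A.Z peaks.

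The 2 assays divided the genes differently. ATACseq peaks were present in both livers at Ccnd3, Cdk4 and Cdkn1b, in WT only at Cdk6, in Uhrf1hepKO only at Ccnd2 and Ccne2, and in neither at Ccnd1, Ccne1, Cdk2 and Cdkn1a. Across protein-coding genes the same 4 classes made up 23%, 7.19%, 4.85% and 65%. H2A.Z was called in both livers at 7 genes, in WT only at Ccne2, in Uhrf1hepKO only at Cdkn1a, and in neither at Ccnd2, with shares of 48.8%, 3.95%, 2.19% and 45% across all genes. Of the gene 5′ ends taken as TSS, only those of Cdk4 and Cdkn1b lay under an ATACseq peak. The Uhrf1hepKO ATACseq peak far inside Ccnd3 also covered the annotated start of a short transcript, 88385 bp into the gene. The map of the windows shows these arrangements.

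**Figure D1:**
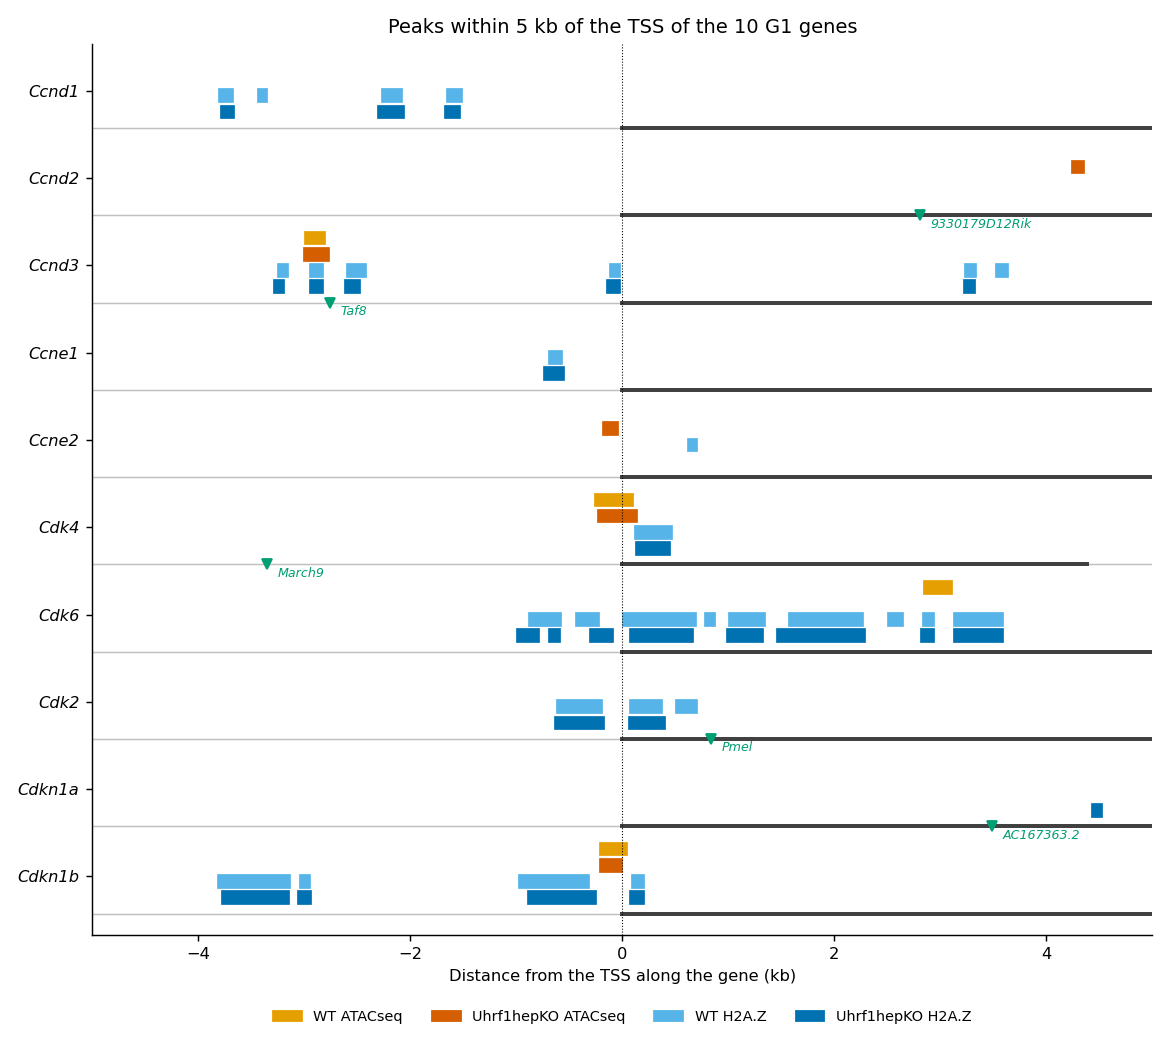
Peaks within 5 kb of the TSS of the 10 genes, with the distance from the TSS in kb along the direction of transcription on the x axis and 1 track per list (box, from the start to the end of a peak). Dark lines mark the gene body and triangles the TSS of another gene. ATACseq boxes cross the TSS only at Cdk4 and Cdkn1b, Cdk6 carries 9 WT and 8 Uhrf1hepKO H2A.Z boxes, and Ccnd2 carries none.

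Among the D-type cyclins, Ccnd1 (ENSMUSG00000070348, chr7:144929931-144939925, - strand), the cyclin induced first by mitogens, had no ATACseq peak in either liver. The nearest one lay 103622 bp upstream in WT and 90894 bp upstream in Uhrf1hepKO. H2A.Z was found upstream only. WT had 4 peaks, at 1583 bp (23 reads, 14.6 to 34.5), 2097 bp (14 reads), 3393 bp (17 reads) and 3766 bp (21 reads) before the TSS. Uhrf1hepKO had 3 of these, at 1598 bp (29 reads, 19.4 to 41.6), 2156 bp (17 reads) and 3716 bp (20 reads). The peak at 3393 bp was in WT only. Thus the arrays of both livers matched in place, stopped about as far from the start (1513 and 1527 bp), and left the TSS and the gene body without a peak in either list. The next H2A.Z beyond the gene was 14409 bp past its 3′ end in WT and 14940 bp in Uhrf1hepKO.

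Ccnd2 (ENSMUSG00000000184, chr6:127125162-127152193, - strand) lacked H2A.Z in both livers. The nearest H2A.Z peak was 42270 bp downstream of the TSS in WT and 42132 bp in Uhrf1hepKO, and upstream none lay closer than 178321 and 178288 bp. Its 1 peak was an ATACseq peak of the Uhrf1hepKO list at chr6:127147835-127147961, 4295 bp into the gene. With a fold of 5.64, above 87.9% of its list, this was the highest-ranking ATACseq peak of the set. It lay over an exon of a noncoding transcript of Ccnd2, held 1 CpG, and was outside the antisense gene 9330179D12Rik, which starts 2804 bp from the Ccnd2 TSS and is transcribed away from the peak. In WT the nearest ATACseq peak was 42400 bp downstream. The Ccnd2 start site had 50 CpGs within 500 bp, more than 57.0% of genes, so low CpG density did not accompany the lack of H2A.Z here.

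Ccnd3 (ENSMUSG00000034165, chr17:47505051-47599691, + strand), the D-type cyclin best known from lymphoid cells, held peaks at several separate places. The first was beside the start of the divergent gene Taf8, a subunit of TFIID, 2759 bp upstream. There an ATACseq peak was called in both livers (fold 4.14 in WT and 4.69 in Uhrf1hepKO), and an H2A.Z peak lay under it with 33 reads in WT (22.7 to 46.3) and 32 in Uhrf1hepKO (21.9 to 45.2). Further H2A.Z peaks stood on either side, at 3201 and 2508 bp upstream in WT and at 3254 and 2573 bp in Uhrf1hepKO. The 5′ end of Ccnd3, taken here as its TSS, had no ATACseq peak and only a narrow H2A.Z peak. The summit of that peak lay 69 bp upstream with 17 reads in WT and 82 bp upstream with 22 reads in Uhrf1hepKO. Annotated starts further inside the gene are described below. Since the window reaches Taf8, the ATACseq peak that counts for Ccnd3 within 5 kb lay inside its neighbour, close to but not over the start of Taf8.

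Inside Ccnd3 an intronic ATACseq peak recurred in both livers, 6243 bp (WT, fold 4.12) and 6237 bp (Uhrf1hepKO, fold 3.84) from the TSS. Intronic H2A.Z was shared at 3265 bp in WT (23 reads) and 3255 bp in Uhrf1hepKO (24 reads), and WT alone had peaks at 3591 bp (20 reads) and 6560 bp (16 reads). A shared intronic peak at 83767 bp had 17 reads in WT and 21 in Uhrf1hepKO. The strongest H2A.Z of the gene was far downstream, near starts of short transcripts at 88385, 88419 and 88478 bp. WT had 36 reads there (25.2 to 49.8), with a fold above 92.0% of its list, and Uhrf1hepKO had 42 (30.3 to 56.8), with a fold above 94.4%. In Uhrf1hepKO an ATACseq peak was called at the same place (chr17:47593140-47593449, 88243 bp from the TSS, fold 3.41), whereas WT had none. That peak was among the weaker calls of its list, above 13.4% of folds, with a q-value of 0.0639.

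The E-type cyclins had the most CpG-dense starts of the set and few peaks. Ccne1 (ENSMUSG00000002068, chr7:38097984-38107534, - strand) had 127 CpGs within 500 bp of its TSS, more than 98.5% of genes. It had no ATACseq peak closer than 22275 bp in WT and 22289 bp in Uhrf1hepKO. A single H2A.Z peak stood upstream in each liver, with its summit 665 bp from the TSS and 13 reads in WT (6.92 to 22.2), and at 567 bp with 16 reads in Uhrf1hepKO (9.15 to 26.0). Their folds of 3.41 and 3.95 were above 3.59% and 10.4% of their lists, so both were near the lower limit of what was called. The sequence of the WT peak, printed above, held 1 CpG despite the density closer to the TSS.

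Ccne2 (ENSMUSG00000028212, chr4:11191351-11204779, + strand) had 134 CpGs within 500 bp, more than 99.1% of genes and the most of the set. Here the lists of both livers had nothing in common. WT had an H2A.Z peak in the intron 651 bp downstream (chr4:11191962-11192059, 17 reads, 9.90 to 27.2) and no ATACseq peak within 34857 bp. Uhrf1hepKO had an ATACseq peak centred 114 bp upstream (fold 3.92, above 44.6% of its list) and no H2A.Z peak within 43970 bp. Both were modest calls of 98 and 148 bp in length. Of 206 protein-coding genes with at least as many CpGs as Ccne2, 35.4% had an ATACseq and 71.4% an H2A.Z peak within 5 kb in WT, and 27.7% and 68.4% in Uhrf1hepKO. Most such genes thus lacked an ATACseq peak within 5 kb, whereas most had an H2A.Z peak. How many had different marks in the livers, as Ccne2 did, was not counted.

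Of the kinases, Cdk4 (ENSMUSG00000006728, chr10:127063534-127067920, + strand), partner of the D-type cyclins, had an ATACseq peak across its TSS in both livers. It spanned chr10:127063263-127063635 in WT (fold 4.61, above 60.4% of the list) and chr10:127063294-127063674 in Uhrf1hepKO (fold 4.24, above 57.6%). H2A.Z was on the downstream side only, in 1 peak of 357 bp in WT (17 reads, 9.90 to 27.2) and 331 bp in Uhrf1hepKO (18 reads, 10.7 to 28.4). The WT H2A.Z peak began 13 bp beyond the edge of the ATACseq peak, and in Uhrf1hepKO the edges overlapped. Upstream, no H2A.Z was called for 21007 bp in WT and 20854 bp in Uhrf1hepKO. March9 starts 3350 bp upstream, in that part of the window without a peak in any list.

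Cdk6 (ENSMUSG00000040274, chr5:3341485-3531008, + strand), the other partner of the D-type cyclins and the longest gene of the set at 189524 bp, carried the most H2A.Z. Within 5 kb of its TSS there were 9 peaks in WT and 8 in Uhrf1hepKO, which 0.105% and 0.141% of protein-coding genes equalled or exceeded. Their summed length of 3144 bp in WT was above that of 99.97% of genes and the 2946 bp in Uhrf1hepKO above that of 99.95%. Their summits ran from 825 bp upstream to 3199 bp downstream in WT and from 844 bp upstream to 3195 bp downstream in Uhrf1hepKO, through the first intron and past the transcripts that start at 2247, 2408, 2431 and 2827 bp. Reads at these summits ranged from 16 to 31 in WT and from 17 to 35 in Uhrf1hepKO, so the array was long rather than high. Cdk6 began with 73 CpGs within 500 bp, more than 77.9% of genes, fewer than either E-type cyclin.

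A pair of ATACseq peaks was called at Cdk6 in WT and none in Uhrf1hepKO, although H2A.Z was called at both places in both livers. The first (chr5:3344317-3344597, fold 3.97, above 33.9% of the list, q = 0.00994) overlapped the exon that holds the start codon, beside the transcript start at 2827 bp. It overlapped 1 small H2A.Z peak, had the strongest H2A.Z peak of the window 5 bp beyond its downstream edge (31 reads), and had the next one upstream at 180 bp. That downstream peak had 35 reads in Uhrf1hepKO. The second lay in an intron at 149987 bp (fold 3.60, above 12.5% of the list, q = 0.0352) over an H2A.Z peak with 28 reads in WT and 36 in Uhrf1hepKO. Both ATACseq peaks thus ranked below the middle of the WT list.

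Beyond the window, Cdk6 H2A.Z gathered in separate intronic clusters that recurred in both livers, so that the whole gene held 20 WT and 17 Uhrf1hepKO peaks. They stood at about the same places, with summits at 44965 and 44930 bp (20 and 25 reads), 66904 and 66889 bp (26 and 32 reads), 150030 and 150025 bp (28 and 36 reads), 160310 and 160304 bp (23 and 38 reads) and 175615 and 175603 bp (24 and 23 reads) in WT and Uhrf1hepKO, respectively. The smaller peaks of these clusters were at 44756 (14 reads), 45421 (16), 66583 (13), 149706 (16) and 160004 bp (20) in WT, and at 149717 (25) and 159990 bp (27) in Uhrf1hepKO. One more cluster had a peak in each list without overlap, at 97610 bp in WT and 97916 bp in Uhrf1hepKO. A peak at 112848 bp was in Uhrf1hepKO only (24 reads, 15.4 to 35.7). The plot of both long genes sets these clusters beside the annotated starts.

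**Figure D2:**
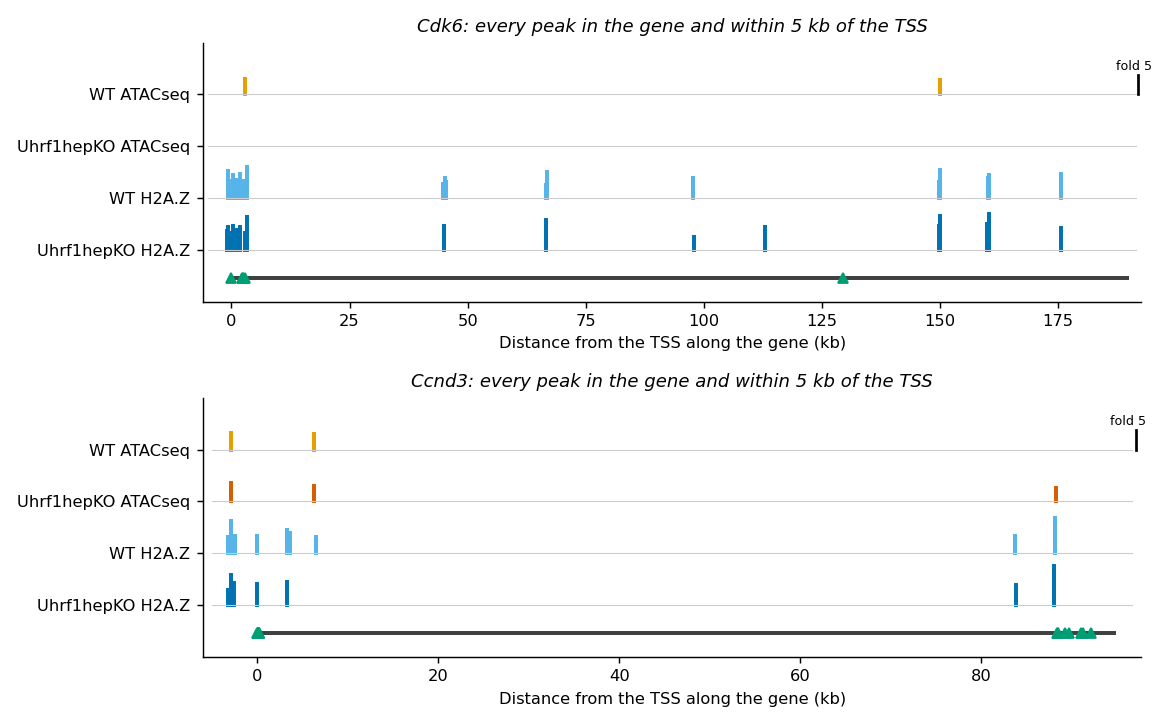
All peaks in Cdk6 and Ccnd3 and within 5 kb of their TSS, with the distance from the TSS in kb on the x axis, 1 row per list and the height of each line giving the fold (scale bar, fold of 5). The dark line is the gene and triangles are annotated transcript starts. The Uhrf1hepKO ATACseq row is empty at Cdk6 and has an extra line at 88243 bp in Ccnd3, where both H2A.Z rows reach their highest lines of that gene.

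Cdk2 (ENSMUSG00000025358, chr10:128697939-128705031, - strand), the kinase of the E-type cyclins, had the highest H2A.Z summit of the set in Uhrf1hepKO, shared the highest in WT with the internal Ccnd3 start, and had no ATACseq peak at its start. Upstream of the TSS the summit had 36 reads in WT (25.2 to 49.8, fold 9.02, above 92.0% of the list) and 43 in Uhrf1hepKO (31.1 to 57.9, fold 10.2, above 95.1%), at 419 and 256 bp. Downstream a second peak had 25 reads at 311 bp in WT and 26 at 332 bp in Uhrf1hepKO. The TSS lay between them in a span without H2A.Z of 255 bp in WT and 234 bp in Uhrf1hepKO. WT alone had a further peak at 626 bp (15 reads). Pmel, a pigment cell gene on the other strand, starts 836 bp into Cdk2 and its annotation runs through the same window. The nearest ATACseq peak was 1284 bp past the 3′ end of Cdk2 in WT and 1277 bp in Uhrf1hepKO.

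The inhibitors differed from each other in every list. Cdkn1b (ENSMUSG00000003031, chr6:134920401-134925513, + strand) had an ATACseq peak over its TSS in both livers, chr6:134920177-134920447 in WT (fold 4.06, above 38.4% of the list) and chr6:134920182-134920402 in Uhrf1hepKO (fold 3.92, above 44.4%). H2A.Z stood on both sides without touching it. The upstream peak had 28 reads in WT (18.6 to 40.5) and 33 in Uhrf1hepKO (22.7 to 46.3), with summits at 758 and 760 bp. The downstream peak had 27 reads in WT (17.8 to 39.3) and 30 in Uhrf1hepKO (20.2 to 42.8), with summits at 155 and 142 bp. The ATACseq peak sat 87 bp from the upstream and 35 bp from the downstream H2A.Z peak in WT, and 30 and 65 bp in Uhrf1hepKO. A further pair of H2A.Z peaks lay upstream in both livers, at 3216 and 3013 bp in WT (28 and 21 reads) and at 3364 and 3002 bp in Uhrf1hepKO (25 and 23 reads). The total H2A.Z length in the window was 1592 bp in WT, above 98.8% of genes, and 1550 bp in Uhrf1hepKO, above 98.7%.

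Cdkn1a (ENSMUSG00000023067, chr17:29090976-29100727, + strand) had the fewest CpGs of the set, 7 within 500 bp of the TSS, with 14.2% of genes having fewer. It had no ATACseq peak closer than 65956 bp in WT and 58305 bp in Uhrf1hepKO. In WT it also lacked H2A.Z, the nearest peak being 12024 bp upstream. Uhrf1hepKO had 1 intronic H2A.Z peak, chr17:29095397-29095497, with its summit 4491 bp from the TSS and 19 reads (11.4 to 29.7, fold 4.65, above 27.4% of the list). AC167363.2, an entry annotated as TEC, starts 3485 bp into Cdkn1a on the other strand and had no peak over it. The p21 start was thus without a peak in either liver, in contrast to that of p27. The length plot shows this range among the 10 genes.

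**Figure D3:**
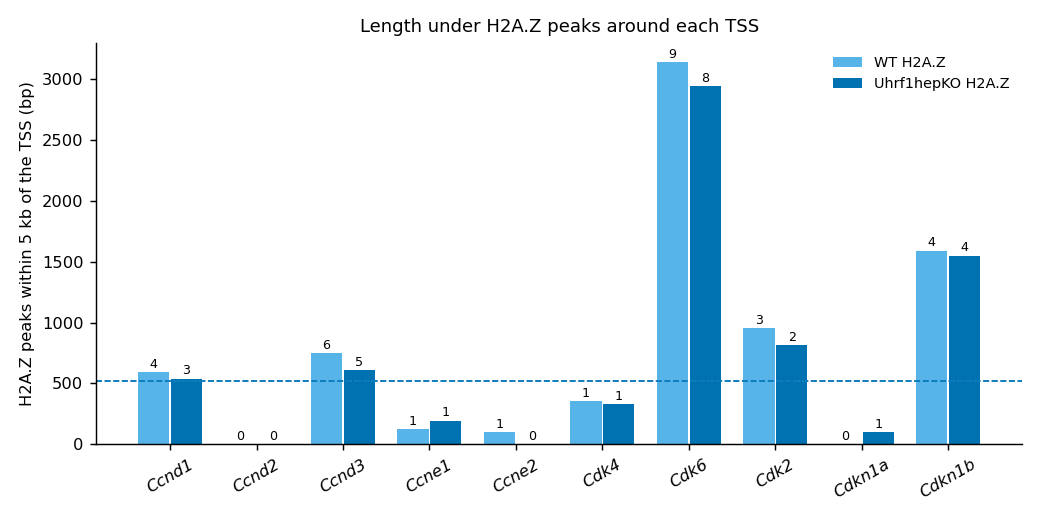
Summed length in bp of H2A.Z peaks within 5 kb of each TSS (bars, WT light and Uhrf1hepKO dark), with the number of peaks above each bar and dashed lines at the median of genes with a peak (523 bp in WT, 518 bp in Uhrf1hepKO). Cdk6 (3144 and 2946 bp) and Cdkn1b (1592 and 1550 bp) stand highest, and Ccnd2 is at 0 in both.

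Between livers, 33 of the 43 WT H2A.Z peaks of these genes were overlapped by a Uhrf1hepKO peak (76.7%, 62.3 to 86.8%), where the share over all genes was 73.8%. In reverse 33 of 36 were (91.7%, 78.2 to 97.1%), with a background of 80%. The 10 WT peaks without a partner had 14 to 20 reads at the summit (median 16.5), whereas the 33 with one had 13 to 36 (median 23). The 3 Uhrf1hepKO peaks without a partner had 13, 19 and 24 reads. None of these 13 peaks had more reads than the median of the shared peaks of its list. The same comparison over all peaks of the lists is not given here, so this cannot be called particular to the G1 genes. For ATACseq, 4 of 6 WT peaks (66.7%, 30 to 90.3%, background 65.3%) and 4 of 7 Uhrf1hepKO peaks (57.1%, 25 to 84.2%, background 66.8%) were shared.

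H2A.Z summits could be compared where a single WT peak matched a single Uhrf1hepKO peak, which gave 30 pairs over 7 of the genes. In 0 of the 30 did the Poisson intervals of the reads fail to overlap. Over all 30954 such pairs in the genome, inside or outside genes, the share was 0.0194%. The Uhrf1hepKO summit had more reads in 22 pairs, fewer in 5 and the same number in 3. Over all pairs in the genome the split also leaned to Uhrf1hepKO, with more reads in 18354 pairs, fewer in 10055 and the same number in 2545. The median ratio of Uhrf1hepKO to WT reads was 1.15 (0.893 to 1.65) in the members and 1.07 over all 30954 pairs. These ratios are not scaled for depth or background. Over all H2A.Z peaks of each list, the median background was also higher in Uhrf1hepKO (3.303 reads) than in WT (3.103 reads). How much of the lean to Uhrf1hepKO goes with this background was not tested. The widest ratios were at the intronic Cdk6 peaks at 160310 bp (23 reads in WT and 38 in Uhrf1hepKO, above 98.2% of pairs) and 149706 bp (16 and 25 reads, above 96.7%). At the other end the Cdkn1b peak 3216 bp upstream had 28 reads in WT and 25 in Uhrf1hepKO. Summits moved by a median of 13.5 bp between livers, and by 16 bp over all pairs. Whether reads at any of these sites differ between genotypes cannot be told with 1 library each.

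**Figure D4:**
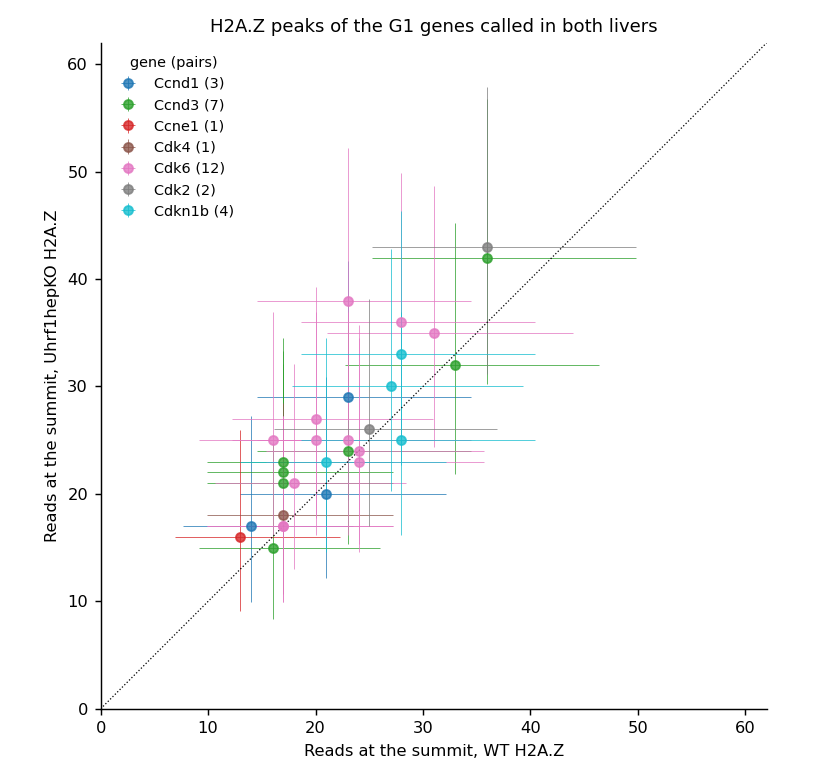
Reads at the summit of the 30 H2A.Z peaks matched between WT (x axis) and Uhrf1hepKO (y axis), coloured by gene, with exact Poisson 95% intervals as bars and the line of equal reads dotted. More points lie above the line (22) than below it (5), as over all pairs in the genome (18354 and 10055), and every pair's intervals overlap.

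Within a liver, ATACseq and H2A.Z peaks of these genes touched in 3 of 6 cases in WT and 3 of 7 in Uhrf1hepKO, and 3 H2A.Z peaks in each liver overlapped an ATACseq peak. The overlaps were beside the Taf8 start upstream of Ccnd3 in both livers, at both Cdk6 sites in WT, and at the internal Ccnd3 start and Cdk4 in Uhrf1hepKO. All 6 WT ATACseq peaks had an H2A.Z peak within 150 bp. In Uhrf1hepKO the Ccnd2, Ccne2 and intronic Ccnd3 peaks had none that near. ATACseq peaks of these genes were richer in CpGs (median 7.37 per 100 bp in WT and 7.09 in Uhrf1hepKO) than their H2A.Z peaks (2.75 and 2.86). Neither the overlaps nor the CpG medians were computed over all peaks of the lists. They therefore cannot be called particular to the G1 genes.

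CpG number around the TSS did not order the genes by their peaks. The set ranged from 7 (Cdkn1a) to 134 (Ccne2) with a median of 62, against 41 over protein-coding genes. Of sequence words searched on both strands from 250 bases before to 50 bases after the TSS, the GC box GGGCGG was found at 8 of 10 genes, all but Ccnd2 and Cdkn1a, and at 43.0% of all such promoters. Cdk2 had the most copies, 6, all in the sequence printed above. CCAAT was found at Ccne2, Cdk2 and Cdkn1b (39.0% of promoters). TATAAA and the CRE word TGACGTCA were found at 0 of 10 (12.6% and 2.43%). Of the E2F words TTTCCCGC, TTTGGCGC, TTTCGCGC, TTTGCCGC, TTTGGCGG and TTTCCCGG, 1 was found, at Cdk2 160 bases upstream on the opposite strand (4.71% of promoters held one). The E box CACGTG was searched after the Cdk4 sequence had been read. It was found at Ccnd2, Ccne2, Cdk4 and Cdk6 (7.75% of promoters), and the 4 copies at Cdk4, at 171, 117, 97 and 10 bases upstream, were equalled or exceeded at 6 of 21938 promoters. All 4 lie under the WT ATACseq peak printed above. These are matches of letters and not evidence of a bound factor.

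The other genes of the pathway were 15 further CDK inhibitors, CDK-activating and phosphatase genes and SCF ligase subunits. They had a peak within 5 kb at 8 (WT ATACseq), 6 (Uhrf1hepKO ATACseq), 12 and 12 (H2A.Z) genes. The shares over all protein-coding genes were 30.2%, 27.9%, 52.8% and 51%, also for the mitotic regulators below. For neither list was an interval computed or a difference from the G1 genes tested. Cdkn1c, Cdkn2a and Skp2, the F-box protein that recognises Cdkn1b, had none in any list. Among the highest ATACseq folds of the 15 were those of Fbxw7, which targets cyclin E for degradation (7.07 in WT and 7.27 in Uhrf1hepKO), Rbx1, the RING subunit of SCF (5.16 and 4.81), and the Cdk4 and Cdk6 inhibitor Cdkn2d (4.94 and 6.13). Ccnh had an ATACseq peak in WT only (5.02) and Cdkn2b in Uhrf1hepKO only (3.58), and Cdc25a in both (4.23 and 5.21). In H2A.Z the leading folds were at Cdk7 and Mnat1, members of the CDK-activating kinase (11.2 and 10.2 in WT, 9.53 and 9.99 in Uhrf1hepKO), at Skp1a (10.97 and 9.76) and at the Cdk4 and Cdk6 inhibitor Cdkn2c (9.51 and 11.9). The other leading SCF genes were Cks1b in WT (6.34) and Cul1 in Uhrf1hepKO (6.74), and Cdkn2b followed Cdkn2c (6.09 and 7.90). Of 10 mitotic regulators, 5 and 7 had an ATACseq and 9 and 9 an H2A.Z peak. Their highest ATACseq folds were 9.46 in WT and 11.5 in Uhrf1hepKO near Cdc25c and 7.56 and 6.86 near Cdk1, whereas the highest of the G1 genes within the window were 4.61 (Cdk4) in WT and 5.64 (Ccnd2) in Uhrf1hepKO. In H2A.Z, Ccna2 reached 11.7 and 11.2, followed by Ccnb1 in WT (9.02) and Plk1 in Uhrf1hepKO (10.7), and the highest of the G1 genes, Cdk2, 9.02 and 10.2. Within each ATACseq list no G1 gene reached the fold near Cdk1.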

How the data were processed

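ATACseq and H2A.Z ChIPseq libraries came from 1 liver of each genotype. The authors mapped the reads with BWA-MEM on GRCm38.p4, cleaned them with PICARD (with removal of duplicates stated for ChIPseq) and called peaks per library with MACS2, as broad peaks for ATACseq. The methods give a p-value of 0.05. The highest q-values among the peaks used were 0.0997 (WT ATACseq), 0.0993 (Uhrf1hepKO ATACseq), 0.04996 (WT H2A.Z) and 0.0489 (Uhrf1hepKO H2A.Z), so the limits of the 2 assays were unlike. The mode of the H2A.Z calls, the MACS2 version, a control library and a shift of ATACseq reads are not given in the sources used here. ATACseq reads are described as single-end but were called with the option for paired reads. Each deposited peak has a display score, a fold (the ratio of pileup to background that the authors' caller gave), and −log10 p- and q-values. The authors' H2A.Z lists also give another value, the offset of the summit. Read depth is not known from ATACseq lists.

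Positions were written 1-based. Genes came from GENCODE vM21, with the 5′ end of the gene as its TSS, and overlaps needed 1 bp. Distances were measured to the H2A.Z summit or the ATACseq peak centre. MACS2 folds are the pileup plus 1 over the background plus 1, and the whole number of summit reads that gave both the fold and the Poisson p-value, within 0.01 in −log10 p, was found for 100% of H2A.Z peaks. The 10 genes and the comparison lists were chosen with earlier results of these data known. All 10 are named, with genes of the pathway and mitotic lists that had no peak or stood among the top folds, and neighbours whose TSS lay in a window. Steps were tested on simulated data, where 200 of 200 planted peaks, 400 of 400 overlaps and 500 of 500 summits were recovered. The tools were pysam 0.24.0, scipy 1.17.1, pandas 2.3.3, numpy 2.4.6 and matplotlib 3.10.9 under Python 3.11.15.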

Additional observations from a re-analysis of the deposited data

How the results depend on the processing

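With 1 library per condition the spread between mice is unknown, sites under the calling limit are missing from the lists, and a peak present in 1 list says little about the other liver. No paired analysis was possible because each genotype had a single liver and no test was made. Of 104 values recomputed under an alternative, 85 stayed within 1.5 times the count, or within the interval of the share, and 19 moved. Narrower windows lowered the number of G1 genes with an ATACseq peak from 4 to 2 in WT and from 5 to 3 in Uhrf1hepKO, with 1 kb and with 500 bp alike, and 500 bp lowered those with H2A.Z from 8 to 5 in each liver. Using only the upper part of each list by fold, from its median, left 1 WT and 3 Uhrf1hepKO genes with an ATACseq peak, 5 and 5 with an H2A.Z peak, 1 and 3 ATACseq peaks and 23 and 23 H2A.Z peaks. In that setting the 1 WT ATACseq peak left was shared with Uhrf1hepKO (100%) and had no overlap with H2A.Z (0%). Asking for 50% of both peaks, the share of Uhrf1hepKO H2A.Z peaks matched in WT was 77.8% and that of Uhrf1hepKO ATACseq peaks over H2A.Z 14.3%, and allowing gaps of 150 bp the share of WT ATACseq peaks beside H2A.Z was 100%. Counting starts of any transcript, placing peaks by summit or centre, q-values of 0.01 or lower and equal list sizes moved 0 values. Smaller changes stayed within the limit of 1.5 times. Among these, equal list sizes lowered the WT H2A.Z genes from 8 to 7 and the WT H2A.Z peaks from 43 to 39. A window of 1 kb left 7 genes with H2A.Z in WT and 6 in Uhrf1hepKO. A Poisson tail of at least, rather than above, the observed reads solved 1 of 43 WT and 2 of 36 Uhrf1hepKO peaks and gave no value.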
